A study of Mus musculus with 2 samples.

Results

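The 9 genes described are genes of ammonia disposal, followed in mouse liver cells. They are the ornithine cycle genes Cps1, Otc, Ass1 and Asl, the cofactor enzyme gene Nags, the ornithine carrier gene Slc25a15, and Gls2, which frees ammonia from glutamine, Glul, which binds ammonia into glutamine, and Oat, which turns ornithine over to glutamate. They were chosen by symbol, each symbol matched 1 row, and they make up 9 of the 32285 genes counted. Single-cell RNA-Seq was done on 2 liver samples, 1 labelled Cebp KO and 1 labelled Cebp WT, both from mice on a 40% HFCFD (a fatty feed with added cholesterol and fructose) for 2 weeks. In the study's model Cebpa, the gene for the transcription factor CEBPA, is deleted by Albumin-cre, so the deletion is directed at cells that express albumin, and floxed littermates without Cre serve as controls. The series asked how gene expression in liver cell populations changes when hepatocytes lack CEBPA. No age is stated for the mice in the labels.

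The urea cycle turns ammonia, bicarbonate and the nitrogen of aspartate into urea. CPS1 makes carbamoyl phosphate in mitochondria and needs N-acetylglutamate, the product of NAGS, while OTC joins carbamoyl phosphate to ornithine, and ASS1 and ASL carry out cytosolic steps that lead to arginine. Hepatocytes near the portal vein carry most of the cycle together with GLS2, the liver glutaminase, whereas a thin rim of hepatocytes around the central vein holds GLUL, glutamine synthetase, together with OAT, ornithine aminotransferase, and captures the ammonia that is left.

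No label ties the barcode endings, suffix 1 and suffix 2, to the samples, so the 2 libraries are given by suffix, without a genotype and without replicates, and no p-value is given. Suffix 1 held 17313 barcodes with 60048646 unique molecular identifiers (UMIs, each marking 1 cDNA molecule), and suffix 2 held 15003 barcodes with 52355243. After limits on UMIs, genes and mitochondrial share, 11617 and 6088 cells remained, of which 7922 and 3006 fell in clusters that carried the hepatocyte markers. Deep hepatocyte-like cells, those of at least 5000 UMIs, numbered 682 and 514, with a median of 23578 and 13239 UMIs and a median mitochondrial share of 15.5% in both. All 10 hepatocyte markers were at 10 CPM (UMIs of a gene per 1000000 UMIs) or more in the deep cells of both libraries, and no marker of the cholangiocyte, endothelial, stellate or T cell lists was. Of the macrophage list 2 and 5 of 10 markers reached that level, and of the erythroid list 5 of 6 and the plasma list 3 of 6 in both libraries. The monocyte and plasmacytoid dendritic lists had 1 of 6 each in both libraries, with summed levels of 635.3 and 592.6 CPM in the former and 291.7 and 273.3 CPM in the latter, and the B list had 1 with suffix 1. Cebpa itself stood at 1.23 CPM in the deep cells of suffix 1 and at 108.7 CPM in those of suffix 2. Clusters drawn to over 90% from 1 library held 82.4% of the hepatocyte-like cells, and cluster 9 (570 cells, suffix 1) and cluster 13 (387 cells, suffix 2) held most of the deep cells. No deep hepatocyte-like barcode occurred in both libraries, against 6 among all hepatocyte-like cells.

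All 9 members were detected in the deep hepatocyte-like cells of both libraries. The 9 members together took 0.493% of their UMIs with suffix 1 and 0.623% with suffix 2, an order that turned at a mitochondrial limit of 10% (8469 and 7462 CPM) and without filters on genes or mitochondrial share (3995 and 3827 CPM). A 3' UMI is counted once per molecule whatever the length of the transcript, so CPM values were set side by side without length scaling. Intervals are exact Poisson 95% intervals, and here as below they cover counting error only, not the spread between mice or preparations. With suffix 1 the order was Ass1, Cps1, Otc, Gls2, Asl, Slc25a15, Glul, Nags and Oat, from 1990 to 6.71 CPM. With suffix 2 it was Ass1, Cps1, Otc, Asl, Gls2, Slc25a15, Nags, Oat and Glul, from 2730 to 21.7 CPM. Neighbours in these orders had intervals that did not overlap, except Nags and Oat with suffix 2.

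**Figure D1:**
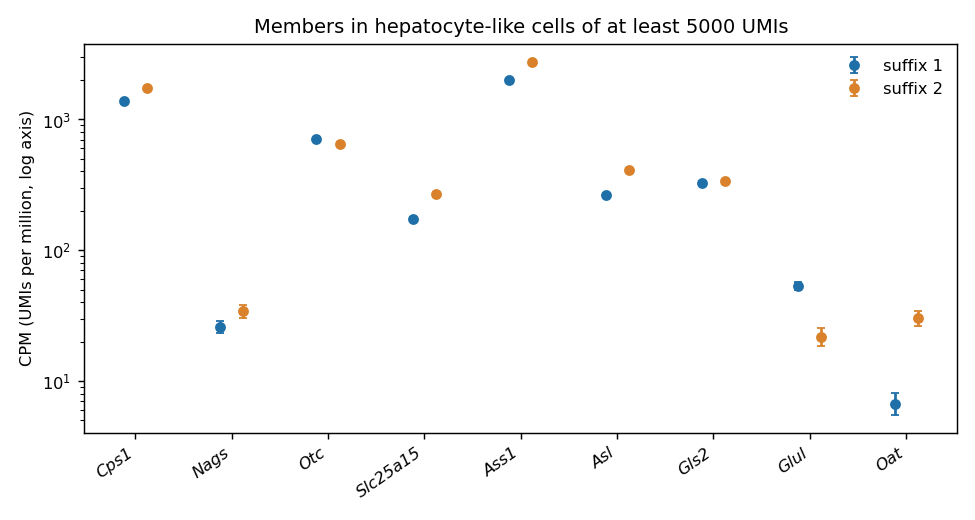
Each point is the summed level of 1 member (CPM, log axis) in hepatocyte-like cells of at least 5000 UMIs, 682 cells with suffix 1 and 514 with suffix 2, and bars are exact Poisson 95% intervals, often smaller than the point. Ass1 and Cps1 lead in both libraries, Glul is higher with suffix 1 and Oat is higher with suffix 2.

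Of the genes of the mitochondrial steps Cps1, Otc and Nags lay within 1.5-fold between the libraries, and Slc25a15 was higher with suffix 2. Cps1, whose enzyme is the rate-controlling entry of the cycle, had 1375 CPM (1357 to 1394) in the first library and 1741 CPM (1712 to 1771) in the second, a ratio of suffix 2 over suffix 1 of 1.27. Otc was at 710.3 and 654.1 CPM, a ratio of 0.921. Nags, which makes the activator of CPS1, was the lowest of the cycle genes at 25.9 CPM (23.4 to 28.5) and 34.05 CPM (30.1 to 38.4). Slc25a15, which brings ornithine back into the mitochondrion, was at 174.0 and 268.6 CPM, a ratio of 1.54. This was within 1.5-fold at a mitochondrial limit of 50% (log2 ratio 0.53), without filters (0.21) and as a mean over cells (179.8 and 265.7 CPM). Cps1 had a UMI in 97.5% and Otc in 99.8% of the deep cells of suffix 1, and with suffix 2 Cps1 had one in 98.6% and Otc in every deep cell. Nags, at its low level, was seen in 39.2% and 37.0%.

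Of the genes of the cytosolic steps Ass1 lay within 1.5-fold and Asl was past it with suffix 2, and both depended on the mitochondrial limit. Ass1, argininosuccinate synthetase, was at 1990 CPM (1968 to 2012) and 2730 CPM (2694 to 2767), a ratio of 1.37. Asl, which splits argininosuccinate into arginine and fumarate, was at 263.4 and 412.6 CPM, 1.57-fold higher with suffix 2, which was within 1.5-fold as a mean over cells (log2 ratio 0.57). With at most 10% of mitochondrial UMIs, Ass1 was at 4658 and 3876 CPM, Otc at 1828 and 1006 CPM and Cps1 at 711.0 and 1293 CPM, so that Ass1 was then lower with suffix 2, Otc was lower and Cps1 higher by more than 1.5-fold, and Asl and Slc25a15 were within 1.5-fold, with log2 ratios of 0.24 and 0.16. Gls2 did not share this difference, with 328.3 and 335.6 CPM and a ratio of 1.02 (0.975 to 1.07). Glul and Oat, the members of the glutamine rim, went opposite ways. B-like cells differed between the libraries in the same directions, with Glul at 102.5 and 34.3 CPM and Oat at 44.6 and 72.0 CPM, where the Oat intervals overlapped. T-like cells did likewise, with Glul at 37.9 and 20.2 CPM and Oat at 19.9 and 28.6 CPM. Not all classes did. Endothelial-like Glul was at 318.1 and 305.9 CPM, and Oat was lower with suffix 2 in endothelial-like (46.9 and 41.1 CPM) and monocyte-like cells (61.0 and 39.8 CPM), with overlapping intervals. In the deep hepatocyte-like cells Glul had 53.1 CPM (49.5 to 56.8) in the first library against 21.7 CPM (18.6 to 25.2) in the second, 0.415-fold, while Oat had 6.71 CPM (5.48 to 8.13) and 30.1 CPM (26.4 to 34.2), 4.42-fold higher with suffix 2. At the limit of 10% Oat was at 51.3 and 71.9 CPM, within 1.5-fold, and Glul at 219.9 and 55.1 CPM.

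Set against a 1.5-fold limit, with 3 UMIs added to both sums, Asl and Slc25a15 were higher with suffix 2, Glul was lower and Cps1, Otc, Ass1, Nags and Gls2 lay within the limit. Oat reached the mean of 10 CPM asked of a gene only through suffix 2, where it was high, so no count over the members is drawn from this limit. Of 6541 genes with a mean of at least 10 CPM, 3.93% were higher and 7.06% lower by that much. With 1 library on each side, this describes 2 preparations and says nothing of the genotypes. Over all hepatocyte-like cells, deep or not, the log2 ratio was 0.40 for Asl, 0.57 for Slc25a15, 0.62 for Oat and -1.54 for Glul.

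Other genes of the pathway are read against the same shares of all genes, 3.93% higher and 7.06% lower. Of 8 enzymes of ammonia, glutamate and glutamine 7 reached a mean of 10 CPM, and of these 1 was higher with suffix 2 and none was lower. The one that was higher was Got1, the cytosolic aspartate aminotransferase, at 52.6 and 376.7 CPM, 7.14-fold, whereas its mitochondrial partner Got2 was at 300.7 and 306.7 CPM. Glud1, which releases ammonia from glutamate in mitochondria, was at 502.8 and 597.8 CPM. Of 11 enzymes of arginine, ornithine and proline 5 reached that mean, and 1 was lower, Prodh, the first enzyme of proline breakdown, at 70.7 and 45.2 CPM. Of 11 nitrogen transporters 7 reached it, and 1 was higher, the glutamate carrier Slc25a22, at 52.7 and 85.1 CPM. Slc25a13, the aspartate-glutamate carrier that feeds ASS1, was at 290.8 and 222.9 CPM.

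Landmarks of the liver lobule are given by their values. Among the periportal landmarks Hal, histidine ammonia lyase, was at 196.3 and 491.2 CPM, and Cyp2f2 at 1886 and 1175 CPM. Pck1, the gluconeogenic enzyme, was at 1594 and 1650 CPM. Of the 10 pericentral landmarks 4 reached the mean, and Cyp1a2 (7.42 and 15.6 CPM) and Lect2 (5.81 and 22.2 CPM) did so only through suffix 2, where they were high. Cyp2e1 was at 306.4 and 315.4 CPM.

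The level of most members varied with the number of UMIs the cell held, whereas Nags with suffix 1 stayed between 22.9 and 30.8 CPM over the 6 depth ranges, with intervals that overlapped. Glul and Oat were highest in hepatocyte-like cells below 2000 UMIs and lowest in those of 10000 or more. With suffix 1 Glul stood at 240.4 CPM (218.9 to 263.5) in cells of 500 to below 1000 UMIs and at 41.3 CPM (37.8 to 45.0) in cells of 20000 or more. With suffix 2 it stood at 92.2 CPM (68.9 to 120.9) and 10.6 CPM (7.62 to 14.3). Oat went from 99.2 to 2.89 CPM with suffix 1 and from 154.3 to 13.8 CPM with suffix 2. In each of the 6 depth ranges Glul was higher with suffix 1 and Oat higher with suffix 2, and the Oat intervals overlapped in the range from 1000 to below 2000 UMIs.

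Cycle genes moved otherwise with depth. Cps1 was lowest from 2000 to below 5000 UMIs, at 730.6 and 880.6 CPM, and higher in deep cells. With suffix 1 it was at 1672 CPM from 10000 to below 20000 UMIs and at 1358 CPM in the deepest cells, and with suffix 2 at 1687 and 1915 CPM. Gls2 rose from 163.3 and 147.2 CPM in the shallowest cells to 355.8 and 350.9 CPM from 10000 to below 20000 UMIs, nearly the same in both libraries. Otc peaked in cells of 5000 to below 10000 UMIs with suffix 1, at 1523 CPM, and from 2000 to below 5000 UMIs with suffix 2, at 980.5 CPM. Ass1 was highest from 5000 to below 10000 UMIs, at 3675 and 3463 CPM, and fell to 1800 and 2385 CPM in the deepest cells. A shallow barcode can hold a part of a cell or free RNA, and the part of either in these trends was not tested.

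**Figure D2:**
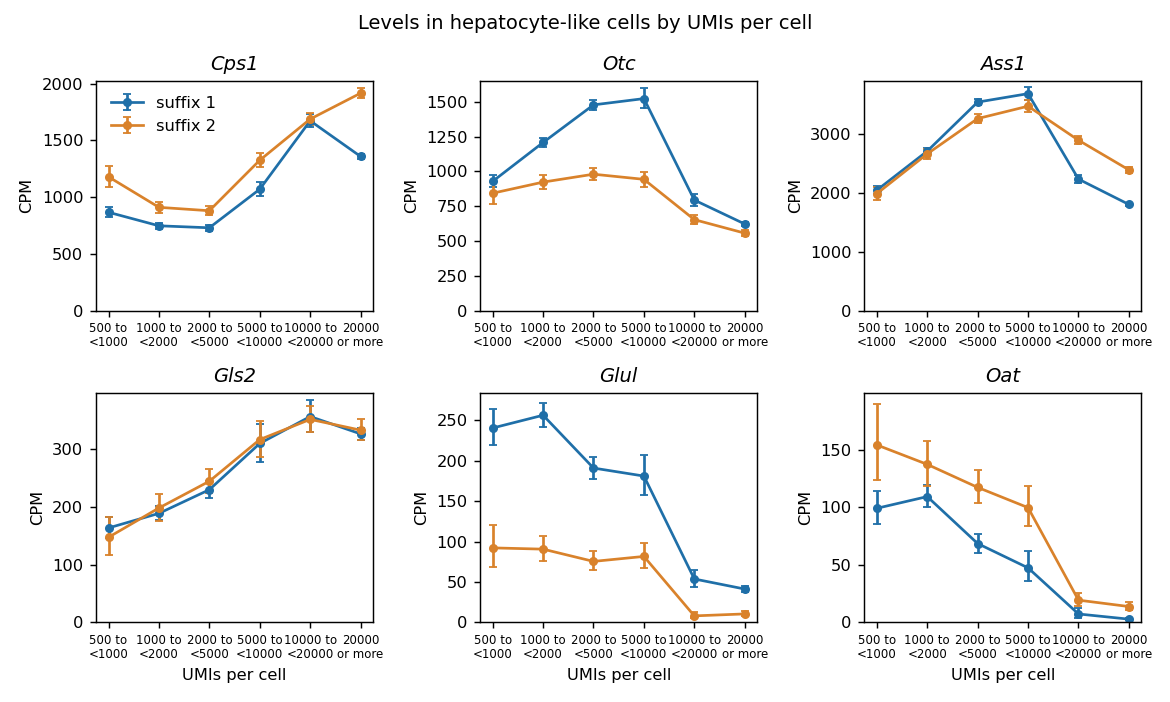
Level (CPM, linear axes from 0) of 6 members in hepatocyte-like cells by UMIs per cell, for suffix 1 (blue) and suffix 2 (orange), with exact Poisson 95% intervals. Glul and Oat drop at 10000 UMIs, Gls2 climbs from about 150 to 350 CPM in both libraries, and Otc and Ass1 peak at middle depths.

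Single deep cells differed most in Glul and Oat. After each deep cell was thinned at random to 5000 UMIs, Ass1 had a median of 10 UMIs per cell with suffix 1 and 14 with suffix 2, and at least 1 UMI in 99.4% and 99.8% of cells. Cps1 had a median of 6 and 7 UMIs, with a variance over the mean of 3.21 and 4.15. Gls2 spread little more than counting error, with a variance over the mean of 1.23 and 1.13 around a median of 1 and 2 UMIs. Glul had a variance over the mean of 22.9 and 20.9 and a UMI in only 19.1% and 7.98% of cells, and Oat had 6.22 and 10.4 with a UMI in 3.23% and 8.95%.

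A few cells carried much of the deep Glul. The highest cell of suffix 1 held 73 of the 823 Glul UMIs, and the highest of suffix 2 held 76 of 171 together with 56 of the 237 Oat UMIs. Without the highest cell of each library Glul was at 48.4 and 12.1 CPM, and Oat at 4.97 and 23.0 CPM. Thinned to 5000 UMIs, the highest Glul cell of suffix 2 had 42 Glul, 31 Oat and 30 Cyp2e1 UMIs, and no UMI of Cps1, Ass1, Asl or Gls2. The 2 highest of suffix 1 had 57 and 54 Glul UMIs with 14 and 8 of Oat, and neither had a UMI of Gls2, though both had Cps1 (4 and 2) and Otc (5 and 4).

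Deep cells with much Glul were few. To take in shallower ones, all hepatocyte-like cells of at least 1000 UMIs, 5641 with suffix 1 and 2280 with suffix 2, were thinned to 1000 UMIs. Glul-rich cells, those with at least 3 Glul UMIs among the 1000, numbered 122 (2.16%, exact binomial 95% interval 1.80 to 2.58%) and 16 (0.702%, 0.402 to 1.14%). Of these only 2 in each library were deep cells. With suffix 1 the share was 0.293% of deep cells (0.0355 to 1.06%) and 2.42% of the others (2.01 to 2.89%), and with suffix 2 it was 0.389% (0.0472 to 1.40%) and 0.793% (0.434 to 1.33%), where the intervals overlap. Just below the limit, 87 and 3 cells had 2 Glul UMIs, and 34 and 2 cells had exactly 3. Since Glul chose these cells, only the other members are described in them.

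Oat went with Glul in both libraries. It stood at 1664 CPM of the thinned UMIs in the 122 Glul-rich cells of suffix 1 against 34.6 in the 5002 cells without a Glul UMI, a ratio of 48.1 (39.1 to 59.3). With suffix 2 it stood at 3938 in 16 cells against 80.4 in 2188, a ratio of 49.0 (36.1 to 65.6). All 16 Glul-rich cells of suffix 2 and 88 of the 122 of suffix 1 (72.1%) had an Oat UMI. The relation held from the other side as well. Of 38 and 20 cells with at least 3 Oat UMIs among 1000, only 1 and 5 had no Glul UMI.

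The cycle enzyme genes were lower in the Glul-rich cells, though all 4 still had UMIs there. Cps1, Otc, Ass1 and Asl, each above 200 CPM in the Glul-rich and the Glul-free cells of both libraries, were lower in the Glul-rich cells by at least 1.5-fold. A mean of 200 CPM was asked of a gene, which Oat reached only through the Glul-rich cells and Gls2 missed through them, so no count over the members is given. Among 690 genes with suffix 1, 11.2% were higher and 7.10% lower, and among 677 genes with suffix 2, 27.5% were higher and 17.7% lower, where only 16 cells stand on one side. Cps1 was at 368.9 against 846.3 CPM with suffix 1 (ratio 0.436, 0.317 to 0.584) and 8 UMIs against 1093 CPM with suffix 2 (0.457, 0.197 to 0.903). Ass1 had ratios of 0.344 (0.286 to 0.411) and 0.388 (0.230 to 0.613). Otc was the least reduced with suffix 1, at 827.9 against 1260 CPM (0.657, 0.534 to 0.800), and with suffix 2 its ratio of 0.545 had an interval that reached 1.08 and turned to 1.30 at a mitochondrial limit of 50%. Asl had a ratio of 0.583 (0.393 to 0.835) with suffix 1 and 4 UMIs with suffix 2, where the interval reached 1.28.

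Gls2 fell below the limit of 200 CPM in this comparison. It had 14 UMIs in the Glul-rich cells of suffix 1, 114.8 against 217.5 CPM (0.528, 0.287 to 0.889), and 0 of 16000 UMIs in those of suffix 2 against 240.4 CPM, where a count of 0 allows 187.5 CPM. Slc25a15 had 14 UMIs and a ratio of 0.728 (0.396 to 1.23) with suffix 1 and 1 UMI with suffix 2. Nags had 3 and 1 UMIs, too few to place it. Glud1 was 1.73-fold higher in the Glul-rich cells of suffix 1 and had a ratio of 1.46 (0.7501 to 2.55) with suffix 2. Of the periportal genes, Pck1 was lower in both libraries, with ratios of 0.373 and 0.494. Sds had 0.432 with suffix 1 and 0.476 (0.174 to 1.04) with suffix 2, from 6 UMIs, and Hal had 9 and 5 UMIs and ratios of 0.487 and 0.967. Cyp2f2 had ratios of 0.856 and 0.839, and pericentral Cyp2e1 1.48 and 1.63.

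Oat rose step by step with Glul. With suffix 1 it was at 160.5, 747.1, 980.8, 1952 and 4143 CPM in cells with 1, 2, 3 to 4, 5 to 9 and 10 or more Glul UMIs among 1000. Cps1 stood in the same cells at 714.0, 655.2, 442.3, 317.5 and 285.7 CPM, and Ass1 at 2602, 1414, 1365, 761.9 and 571.4. The last step held 7 cells. With suffix 2 the steps from 2 Glul UMIs upward held 3, 6, 7 and 3 cells, and Oat rose over them from 1000 to 5333 CPM. Cps1 did not fall step by step there, with 1093 CPM in cells without Glul, 1247 in cells with 1 Glul UMI and 1333, 1000, 142.9 and 333.3 over the further steps, nor did Ass1, with 2902, 2329, 3667, 1667, 1000 and 333.3 CPM.

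**Figure D3:**
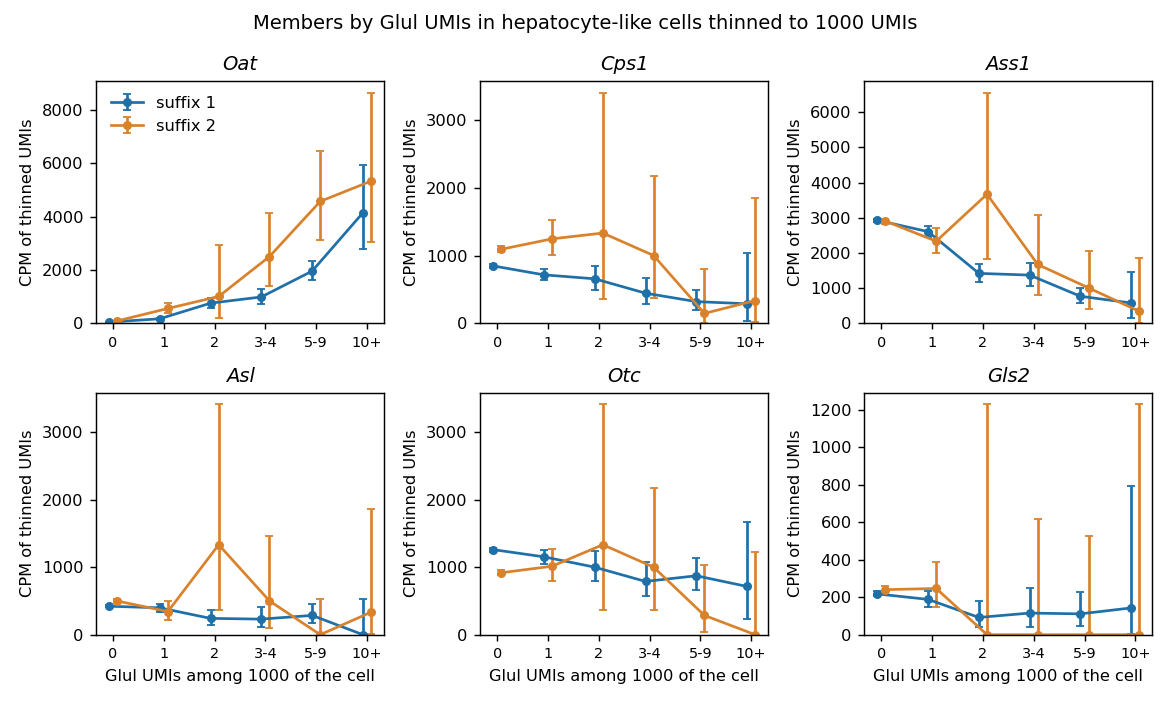
CPM (from thinned UMIs) of 6 members in hepatocyte-like cells thinned to 1000 UMIs, by the number of Glul UMIs among the 1000, for suffix 1 (blue) and suffix 2 (orange), with exact Poisson 95% intervals. Oat climbs with Glul to 4143 and 5333 CPM, Cps1 and Ass1 decline with suffix 1, and the suffix 2 points from 2 Glul UMIs upward rest on 3 to 7 cells each.

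Presence in the same cell gave a like picture for Oat and a weaker one for Cps1 and Gls2. In cells thinned to 1000 UMIs, Oat had a UMI in 27.2% of 639 cells with Glul and 3.28% of 5002 without it with suffix 1, a difference of 23.9 points (20.6 to 27.6). With suffix 2 the shares were 37.0% of 92 and 6.76% of 2188 cells, a difference of 30.2 points (21.0 to 40.4). Cps1 was seen in 44.4% of cells with Glul and 53.5% of cells without it with suffix 1, and in 63.0% and 61.8% with suffix 2, where the interval of the difference, -9.15 to 10.6 points, spans 0. Gls2 was seen in 14.6% against 19.4% (difference -7.56 to -1.66 points) and in 15.2% against 21.1% (-12.1 to 2.98 points). With Oat as the first gene, Gls2 was seen in 7.69% against 19.5% of cells with suffix 1 and 18.1% against 21.1% with suffix 2, and Cps1 in 47.3% against 52.8% and 52.7% against 62.6%.

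In the deep cells thinned to 5000 UMIs, Glul and Oat again went together, with Oat in 6.92% of 130 Glul cells and 2.36% of the others with suffix 1, and in 24.4% of 41 and 7.61% of the others with suffix 2. Gls2 was less frequent beside Glul, at 70.8% against 79.3% and 63.4% against 79.9%. The Gls2 difference of suffix 1, -8.58 points, turned to 7.87 points at 2000 UMIs and to 1.66 points without thinning, and that of suffix 2, -16.5 points, to 13.1 points in cells of at least 10000 UMIs. Cps1 was present in 95.4% against 92.9% and 90.2% against 97.0%, so that presence alone hardly separates cells at this depth. Most deep cells with a Glul UMI had only 1 or 2, since just 10 and 3 cells had at least 3.

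**Figure D4:**
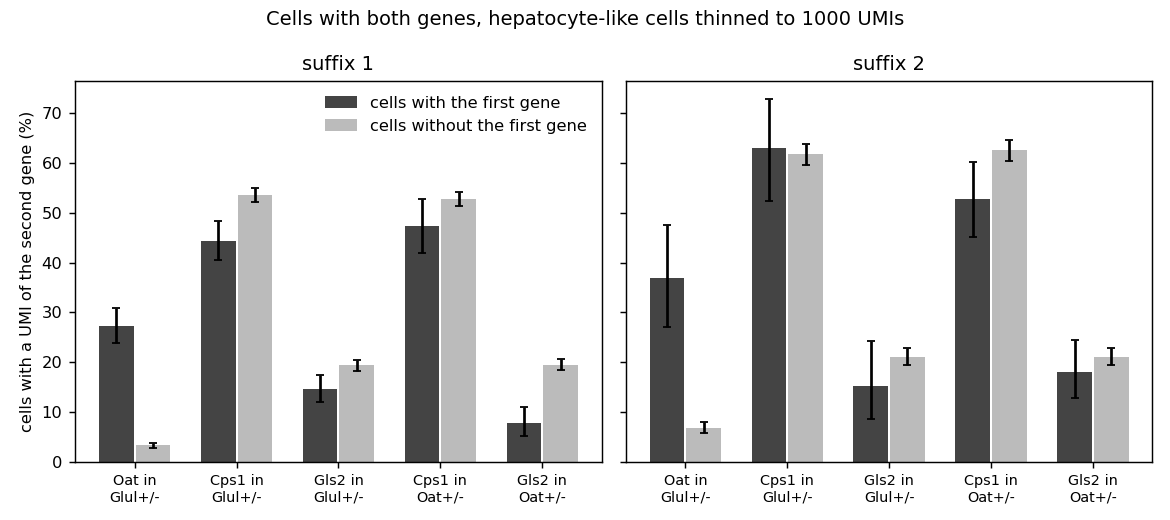
Share of hepatocyte-like cells (%, thinned to 1000 UMIs) with a UMI of the second gene among cells with (dark) and without (light) a UMI of the first, for suffix 1 (left) and suffix 2 (right), with exact binomial 95% intervals. Oat is seen in 27.2% and 37.0% of cells with Glul against 3.28% and 6.76% of cells without it, while the shares for Cps1 and Gls2 lie closer together.

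Across the deep cells the genes most like Glul were Oat, Aldh3a2, Rgn, Gstm2 and Csrp3, by Pearson's r of log2(1 + UMIs per 10000) averaged over the libraries. The r with Oat was 0.422 over 682 cells and 0.431 over 514 cells, and it fell to 0.179 and 0.220 without the 3 cells of highest Glul in each library. The genes most like Oat were Glul, Rgn, Gstm2, Fitm1 and Aldh3a2, with mean r from 0.426 down to 0.325. In the Glul-rich cells of at least 1000 UMIs, Gstm2, Aldh3a2 and Fitm1 had the highest ratios after Oat in both libraries (these too reached the mean of 200 CPM only through the Glul-rich cells), save that Gstm3 and Rgn came before Fitm1 with suffix 1. Gstm2, a glutathione transferase gene, stood at 680.3 against 39.6 CPM with suffix 1 and 750.0 against 16.9 with suffix 2.

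Cps1 and Gls2 were like other genes. Slc7a2, Serpina3k, Egfr and Slc38a4 were among the 5 genes most like Cps1, with mean r from 0.652 to 0.589, and Slc7a2 is a carrier of arginine and ornithine. Those most like Gls2 were Cps1 (mean r 0.461), Serpina3k, Cyp2f2, Selenop and Slc38a3, the last a glutamine carrier. Among members, Slc25a15 was the nearest to Cps1 after Gls2, with mean r of 0.360. Otc, the next enzyme of the cycle, had r of -0.173 and -0.456 with Cps1, and Ass1 had 0.109 and -0.464. Cps1 also moved with Malat1, a nuclear RNA, with r of 0.198 and 0.594, and with the log2 UMIs of the cell, with r of 0.169 and 0.399. The part of nuclear RNA and depth in the likeness of Cps1 to other genes was not tested. These correlations are over cells that share a library, so they are descriptions without a test.

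The 250 bases upstream of the RefSeq starts of Glul and Oat are shown because Oat was the gene most like Glul across the deep cells and had an entry, as Glul did. Both are in GRCm38.p6, read 5′ to 3′ on the strand of the gene, with each CCAAT box (CCAAT or its reverse complement ATTGG) in capitals. Glul lies on chr1:153899679-153899928, plus strand, and Oat on chr7:132576399-132576648, minus strand.
Glul: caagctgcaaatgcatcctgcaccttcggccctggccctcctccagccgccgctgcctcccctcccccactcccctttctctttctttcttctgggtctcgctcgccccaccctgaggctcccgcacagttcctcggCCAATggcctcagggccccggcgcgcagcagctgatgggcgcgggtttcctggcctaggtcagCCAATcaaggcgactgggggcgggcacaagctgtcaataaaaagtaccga
Oat: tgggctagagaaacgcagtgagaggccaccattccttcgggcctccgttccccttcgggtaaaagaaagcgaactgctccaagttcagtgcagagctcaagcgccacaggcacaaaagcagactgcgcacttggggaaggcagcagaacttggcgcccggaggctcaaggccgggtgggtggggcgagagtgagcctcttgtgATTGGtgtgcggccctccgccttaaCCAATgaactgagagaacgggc
Each window held 2 CCAAT boxes, the letters CCAAT being sought on both strands, and 33.9% of 32851 promoter windows of the same length held at least 1. This motif was added after the sequences had been seen. The letters TTGCNNAA, a core of C/EBP sites, were in 9.56% of all windows and in none of the windows of the 6 members with an entry (Otc, Ass1, Nags, Slc25a15, Glul and Oat). The letters CTTTGA, a core of TCF sites, were in 13.8% of all windows and in that of Nags.

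Placed on the genome (GENCODE M21, GRCm38), Cps1 spans 108234 bases of chromosome 1 and is the longest member, while Nags spans 3965 bases of chromosome 11 and is the shortest. Some members share their span with another gene. Gm11586 is antisense to Nags, Spryd4 lies on the strand opposite Gls2, Teddm2 and Mir8114 overlap Glul, and Fgfr2 overlaps Oat on the same strand. The sources used here do not say how reads in these overlaps were assigned.

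Cps1 and Ass1 had UMIs in every cell class compared. Plasma-like cells (41 cells) were too few and are not given. Cps1 stood between 124.1 and 477.2 CPM in the 11 other classes of suffix 1 and between 170.1 and 511.5 CPM in those of suffix 2, below its hepatocyte-like level of 1124 and 1460 CPM. Every cell of these classes had an Alb UMI, and the part of free hepatocyte RNA or of doublets in these levels was not tested. B-like cells, which should lack the cycle, gave 276.1 and 396.0 CPM of Cps1, 921.1 and 852.0 CPM of Ass1 and 10.8 and 8.57 CPM of Nags. T-like cells gave 418.7 and 477.7 CPM of Ass1, and neutrophil-like cells of suffix 2 gave 1085 CPM. Nags had no UMI in plasmacytoid dendritic-like cells of suffix 1, where a count of 0 allows 2.54 CPM, and none in stellate or fibroblast-like and neutrophil-like cells of suffix 2, where it allows 24.3 and 23.3 CPM.

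Among whole classes, Glul was highest in endothelial-like cells. Its level in endothelial-like cells was 318.1 CPM (277.2 to 363.4) with suffix 1 and 305.9 CPM (266.5 to 349.5) in the other library, and Kupffer or macrophage-like cells followed with 257.1 CPM (239.4 to 275.9) and 238.5 CPM (223.0 to 254.8). Hepatocyte-like cells as a whole had less, 125.5 and 43.0 CPM. Within that class, however, clusters 1, 7 and 3 of suffix 1 (60, 609 and 1754 cells) had more than endothelial-like cells, 524.8, 398.6 and 352.3 CPM. Its other clusters with suffix 1 lay between 40.3 and 247.7 CPM. With suffix 2 the highest listed was cluster 2 (88 cells), at 232.6 CPM. Set against 1000 Alb UMIs, endothelial-like cells had 31.5 and 24.1 Glul UMIs and macrophage-like cells (Kupffer cells included) 28.8 and 18.6. This was above the 7.82 and 2.23 of B-like and the 3.69 and 1.08 of hepatocyte-like cells. A Glul UMI was present in 72.3% and 66.0% of Kupffer or macrophage-like cells (median 8648 and 6396 UMIs) and in 18.4% and 10.9% of B-like cells (median 3530 and 3012 UMIs). Removal of the single highest cell left endothelial-like Glul at 307.3 and 292.6 CPM. Oat did not stand out in hepatocyte-like cells when all their UMIs were summed, most of which came from deep cells. It was at 42.0 CPM (39.5 to 44.5) in hepatocyte-like cells of suffix 1 against 54.9 CPM (46.8 to 63.9) in Kupffer or macrophage-like cells. With suffix 2 the levels were 64.6 CPM (60.1 to 69.3) and 63.1 CPM (55.2 to 71.8). The 7240 and 2492 hepatocyte-like cells below 5000 UMIs had more Oat than the whole class. From 500, 1000 and 2000 UMIs upward, their ranges stood at 99.2, 109.4 and 68.6 CPM with suffix 1. With suffix 2 these ranges stood at 154.3, 137.4 and 117.4 CPM. Only the range from 2000 UMIs with suffix 1 (60.7 to 77.2 CPM) overlapped the macrophage-like interval of its library.

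In the deep hepatocyte-like cells as a whole Glul, at 53.1 and 21.7 CPM, was not above its level in B-like cells, 102.5 CPM (81.8 to 126.7) and 34.3 CPM (20.9 to 52.9). Deep cells of 5000 to below 10000 UMIs were above the B-like level, at 181.0 CPM (157.1 to 207.5) and 81.65 CPM (67.0 to 98.6). At a mitochondrial limit of 10% deep Glul was at 219.9 and 55.1 CPM. Deep Oat as a whole, at 6.71 and 30.1 CPM, was below the 44.6 and 72.0 CPM of B-like cells, while deep cells of 5000 to below 10000 UMIs had 47.45 and 99.8 CPM. T-like and erythroid-like cells had less Glul, 37.9 and 20.2 CPM in the former and 28.9 and 16.7 CPM in the latter. Their Oat was at 19.9 and 28.6 CPM and at 7.65 and 14.6 CPM, so that with suffix 2 deep Oat was not below either class. Per cell, however, the deep cells held 1.21 and 0.333 Glul UMIs against 0.423 and 0.121 in B-like cells, and 0.152 and 0.461 Oat UMIs against 0.184 and 0.255. The part of free RNA in the deep levels of Glul and Oat, and in their differences between the libraries, was not tested. After the B-like level was subtracted from that of all deep cells, Glul and Oat were at 0 CPM in both libraries. The level of no other class was subtracted.

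Gls2 was highest in hepatocyte-like cells, at 275.2 and 293.7 CPM.

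**Figure D5:**
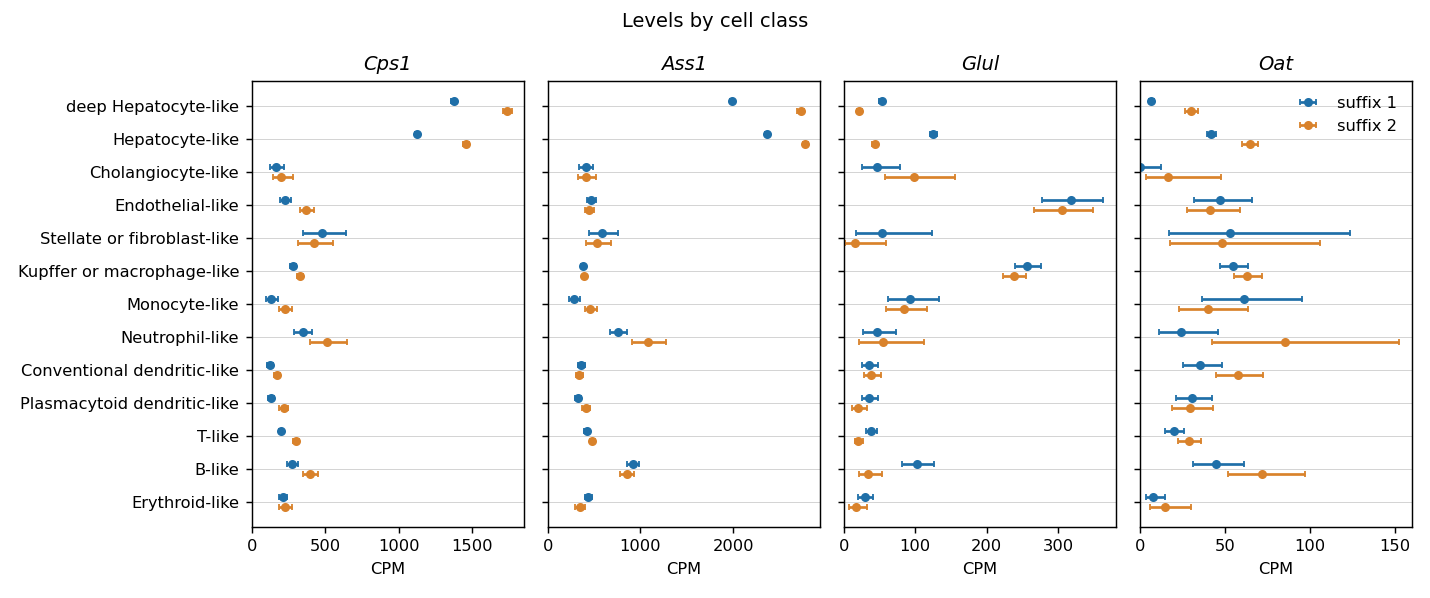
Level (CPM, linear axes from 0) of Cps1, Ass1, Glul and Oat in the named cell classes compared, of suffix 1 (blue) and suffix 2 (orange), with exact Poisson 95% intervals, where deep hepatocyte-like cells are those of at least 5000 UMIs. Among these classes Cps1 and Ass1 are highest in hepatocyte-like cells, whereas Glul is highest in endothelial-like cells, at 318.1 and 305.9 CPM.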

How the data were processed

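The authors deposited 1 matrix of raw UMI counts, made per the labels' processing notes with Cell Ranger 7.1.0 (bcl2fastq 2.20.0, STAR 2.7.2a, mm10) from 10x Genomics 3' libraries. Neither the annotation nor the counting of introns is stated. Barcodes with at least 500 UMIs, 200 genes and at most 25% of UMIs from 13 mitochondrial genes were kept. They were scaled to 10000 and clustered (scanpy 1.11.5, Leiden with igraph 0.11.9, 2000 variable genes without the members, 30 components, 15 neighbours, resolution 1, Python 3.11.15, numpy 2.4.6, scipy 1.17.1). Thinning used seed 1. Clusters were named "X-like" from 16 marker lists. Of 31 clusters, 25 were named. Leading genes were ranked by fold over all other kept cells, a choice made after the clusters had been seen. Scrublet marked 0 cells in both libraries which was read as a failed call, and doublets were kept.

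Summed UMIs were expressed as CPM with exact Poisson intervals, shares with exact binomial (Clopper-Pearson) 95% intervals and differences of shares with Newcombe intervals. Free RNA was not removed. Genes named beside the members are those of fixed lists at or past 1.5-fold or with high CPM, Cebpa, and the 5 most like Glul, Oat, Cps1 and Gls2. Leading genes of Glul-rich cells were named after their values were seen. The rule named 10 members, and 1 of them, with genes of other lists, is not reported here and was left out of sums and counts. The members, the lists and the tests were chosen with earlier results of these data known. The Glul-rich comparison, and co-presence at 1000 UMIs, were added after the data were seen. The measures were tested on simulated data. The planned comparison of knockout with wild type was not made, as no label ties a library to a genotype. Other filters, resolutions, depths, denominators and thinning depths were tried.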

Additional observations from a re-analysis of the deposited data

Results flagged for a closer look

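Barcodes outside the classes that were compared also held UMIs of the members. Among cells over the mitochondrial limit the 9 members took 0.168% of UMIs with suffix 1 (5675 barcodes) and 0.150% with suffix 2 (8886 barcodes), or 0.382% and 0.347% of UMIs that were not mitochondrial. In kept cells of unnamed clusters they took 0.372% and 0.376% of UMIs, against 0.197% and 0.190% in B-like cells. All 4 values lie above what a count of 0 allows, and they were singled out because no comparison of the classes used these barcodes, which enter only alternatives with other filters and, for clusters 20 and 25, the values given further on.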

How the results depend on the processing

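The summed level of the members in deep cells, 4927 CPM with suffix 1 and 6228 CPM with suffix 2, was 8469 and 7462 CPM with a mitochondrial limit of 10%, 3995 and 3827 CPM with no filter on genes or mitochondrial share, 4726 and 6059 CPM at 10000 UMIs or more, 5842 and 7287 CPM over non-mitochondrial UMIs, 5573 and 6514 CPM as a mean over cells, 3046 and 4385 CPM less the B-like level, and 5387 and 6106 CPM over all hepatocyte-like cells. At a limit of 50% it was 4981 and 6037 CPM, and with suffix 1 it was 5051 CPM at resolution 2 and 5047 CPM with members among the variable genes. The order of the libraries was thus turned by the limit of 10% and by the absence of filters. Over all 9 members, those past 1.5-fold were Oat, Asl, Slc25a15 and Glul, Oat reaching the mean of 10 CPM only through suffix 2, and they became 2 without filters, as a mean over cells, over all hepatocyte-like cells and at a fold of 2. At the limit of 10% Oat, Asl and Slc25a15 no longer passed it (log2 ratios 0.44, 0.24 and 0.16), and Cps1 (0.86), Otc (-0.86) and Glul (-1.97) did. Less the B-like level, Ass1, Asl, Nags and Slc25a15 passed it, all higher, and Glul and Oat did not. No share of all genes was computed under these settings, and nothing is read from the numbers. The log2 ratio of Glul, -1.27, turned to 0.98 once the B-like level was subtracted, and that of Oat, 2.14, became 0.98 as well, where all sums were 0 and the values come from the added UMIs alone.

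For co-presence, 86 of 120 values stayed within the interval of the main difference. The limit of 10% gave 14.1 points for Glul with Oat, -27.4 for Oat with Cps1 and -46.3 for Oat with Gls2 (suffix 1), and -38.1 for Oat with Gls2 (suffix 2). No filter gave 9.62 for Glul with Gls2 (suffix 1), -0.270 for Glul with Cps1 and -0.217 for Oat with Gls2 (suffix 2). Cells of 10000 UMIs or more gave 10.7 for Oat with Gls2 (suffix 1), and 3.38, 2.54 and 13.1 for Glul with Oat, Cps1 and Gls2 (suffix 2). Thinning to 2000 UMIs gave -7.84 for Glul with Cps1, 7.87 for Glul with Gls2 and -39.9 for Oat with Gls2 (suffix 1), and -26.3 for Glul with Cps1 (suffix 2). Thinning to 1000 gave -5.66 for Glul with Cps1 (suffix 1), 35.5 and 7.81 for Glul with Oat and Cps1, and -21.7 for Oat with Cps1 (suffix 2). Without thinning, Glul with Gls2 was 1.66 (suffix 1) and Oat with Gls2 -7.29 (suffix 2). The larger set thinned to 1000 UMIs gave 23.9 and -9.09 for Glul with Oat and Cps1 (suffix 1), and 1.25 for Glul with Cps1 and -2.98 for Oat with Gls2 (suffix 2). With at least 3 UMIs of the first gene, Glul gave 47.6, 7.07 and -29.4 points with Oat, Cps1 and Gls2 and Oat gave 6.67 and -78.2 with Cps1 and Gls2 (suffix 1), and Glul gave 92.4, -30.4 and -46.6 and Oat -38.9 with Gls2 (suffix 2), from 2 to 12 cells each. Glul with Oat was positive under all 12 alternatives in both libraries.

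The Oat ratio of Glul-rich over Glul-free cells was 79.0 (suffix 2) at a limit of 50%, and 62.1 and 105.5 without filters. The cause of these changes was not tested. Few Glul-rich cells, 16 with suffix 2, limit every value drawn from them. No paired analysis was possible because the labels give 1 sample to each genotype and the libraries carry no genotype.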

Other observations

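A pair of unnamed clusters had more Cps1 than any hepatocyte-like cluster. Cluster 20 (132 cells, suffix 2) was at 5049 CPM of Cps1 and cluster 25 (77 cells, suffix 1) at 4270 CPM, and Malat1, a nuclear RNA, was at 57819 and 84288 CPM in them. The next enzyme genes did not share the high level, with Otc at 321.1 and 378.3 CPM and Ass1 at 775.8 and 750.5 CPM. For comparison, cluster 9 was at 1429 CPM of Cps1, 624.4 CPM of Otc and 2203 CPM of Malat1, and cluster 13 at 2043, 534.2 and 1953 CPM. The part of nuclear RNA in the Cps1 level of these clusters was not tested.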
